A study of Mus musculus with 36 samples.

Results

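Activator protein 1 (AP-1) and immediate early genes are described here across mouse astrocyte lines. The set was named by symbol and held 10 genes of the 46078 in the count table: the Fos family (Fos, Fosb, Fosl1 and Fosl2), the Jun family (Jun, Junb and Jund), the zinc finger factor gene Egr1, and Ier2 and Ier3. Each of the 10 symbols matched 1 Ensembl gene of the table. Their choice followed earlier results of these data. The libraries came from female and male Nf1-/- DNp53 transformed astrocytes, so every line lacked Nf1 and carried a dominant-negative p53 (DNp53), and cells with intact Nf1 or p53 were not analysed here. The 36 libraries made up 10 lines, 1 female and 1 male line in each of 5 lots (6, 7, 8, 11 and 12), which the series describes as separate litters. Each line had 3 libraries in lots 6 and 12 and 4 in lots 7, 8 and 11, which gave 18 female and 18 male libraries. The cells had been grown in medium with fetal bovine serum, and the labels give no age, stimulus or time since the medium was changed. RNA was profiled by BRB-seq, a pooled method that primes polyadenylated RNA with sample barcodes and molecular identifiers and reads transcript 3' ends. Nothing in the labels ties the libraries of 1 line to different cultures, and p-values between lines therefore reflect the spread between these libraries alone. With 1 line per sex and lot, a sex cannot be told apart from a line within a lot.

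AP-1 is a dimer of a Jun protein with a Fos, Jun or related basic leucine zipper protein, and it binds regulatory DNA of genes for growth, matrix turnover and inflammation. Fos, Fosb, Junb, Egr1, Ier2 and Ier3 are classical immediate early genes: serum, growth factors and stress induce them through Ras, the ERK, JNK and p38 kinases and serum response factor, with no new protein synthesis, and their messages decay fast. Fosl1 and Fosl2 encode the Fos-related proteins Fra-1 and Fra-2, which lack a strong transactivation domain and follow later. Nf1 encodes neurofibromin, which switches Ras off, and in the brain Fos and Egr1 are widely used as marks of recent activity.

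Totals ran from 4358098 to 7562901 counts per library, and a floor of 3 counts corresponded to 0.385 to 0.716 CPM, the counts scaled to a common library size by edgeR's trimmed mean of M-values (TMM). Nf1 lay at 0 to 4.43 CPM and Trp53 at 158 to 463 CPM, and 3' counts do not show whether upstream exons are deleted. Of 12 astrocyte markers 6 exceeded 1 CPM on average, led by Gja1 at 144 CPM, while Gfap averaged 0.135 CPM and Aqp4 0.258 CPM, so Gfap and Aqp4, which define astrocytes in the brain, were near 0. Of 10 fibroblast and mesenchymal markers 8 exceeded 1 CPM, led by Acta2 at 6056 CPM, with Lum at 0. Of 12 microglia and macrophage markers 2 exceeded 1 CPM and 4 (Itgam, C1qa, Tyrobp and Adgre1) were at 0. Over 1 CPM were also 3 of 8 neuron markers, 1 of 8 oligodendrocyte lineage markers and 1 of 8 endothelial markers. In these bulk samples, fewer cells of a type and less RNA per cell cannot be told apart. Chi-square values of 5.47 to 22.3 per degree of freedom over the 48 pairs of libraries within lines showed no copies.

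The genes lie on separate chromosomes apart from 3 on chromosome 8 (GRCm38, GENCODE M21). Fos spans 85473890 to 85477273 on chromosome 12, Fosb 19302696 to 19310051 on chromosome 7, Fosl1 5447547 to 5455946 on chromosome 19 and Fosl2 32135801 to 32157842 on chromosome 5. Jun spans 95049034 to 95052222 on chromosome 4. Junb at 84974484 to 84978718, Jund at 70698949 to 70700616 and Ier2 at 84661331 to 84662852 are on chromosome 8, and Ier3 spans 35821684 to 35822923 on chromosome 17. Genes on the opposite strand overlap 4 of the 10. Ccdc85b covers 2767 bases at the 3' end of Fosl1, and Prdx2 351 bases at the 3' end of Junb. The antisense gene Junos covers 689 bases of Jun, and Gm11175 919 bases of Jund. Whether counting used strand is not given in the sources used here, so reads of each such pair may be mixed. Prdx2 had 121639 counts over all libraries against 9051 for Junb, Ccdc85b 11177 against 39976 for Fosl1, Junos 106 against 44445 for Jun, and Gm11175 had 0.

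RefSeq promoters (GRCm38.p6, 250 bases before to 50 after the start) were matched for 7 of the 10 genes. They are shown for Fos, Fosb and Junb, which each differed between the sexes in at least 1 lot, because these were the 3 of the 7 that held TGACG, the core of the cAMP response element bound by CREB and ATF proteins. Capitals mark TGACG and TATAAA, the TATA box, wherever either stands on the printed strand. The windows are chr12:85473640-85473939 on the + strand, chr7:19309996-19310295 on the - strand and chr8:84978699-84978998 on the - strand.
Fos: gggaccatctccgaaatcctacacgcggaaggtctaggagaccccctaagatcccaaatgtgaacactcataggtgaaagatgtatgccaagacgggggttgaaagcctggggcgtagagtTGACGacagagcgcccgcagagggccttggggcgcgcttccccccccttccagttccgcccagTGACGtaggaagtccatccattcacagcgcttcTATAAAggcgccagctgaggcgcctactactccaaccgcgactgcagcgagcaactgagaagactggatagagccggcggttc
Fosb: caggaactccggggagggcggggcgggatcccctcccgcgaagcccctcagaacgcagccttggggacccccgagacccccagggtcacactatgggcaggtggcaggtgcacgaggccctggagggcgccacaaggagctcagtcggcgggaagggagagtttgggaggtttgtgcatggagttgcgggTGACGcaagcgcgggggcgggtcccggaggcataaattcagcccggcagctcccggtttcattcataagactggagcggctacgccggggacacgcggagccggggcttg
Junb: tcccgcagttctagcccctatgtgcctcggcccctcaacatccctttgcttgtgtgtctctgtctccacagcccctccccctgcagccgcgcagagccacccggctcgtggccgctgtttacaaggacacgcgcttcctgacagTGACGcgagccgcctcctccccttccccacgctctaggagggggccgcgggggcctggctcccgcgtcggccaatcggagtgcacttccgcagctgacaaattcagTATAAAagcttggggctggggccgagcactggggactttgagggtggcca

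TGACG began at bases -129 and -66 from the start in Fos, at -60 in Fosb and at -106 in Junb, and 20.8% of 32851 promoters of the same length held it on either strand. TATAAA began at -33 in Fos and at base 1 of the RefSeq start of Junb, and 13.6% of promoters held it. The AP-1 site TGANTCA (7.81% of promoters), the full element TGACGTCA (1.79%) and the CArG box of serum response factor (1.63%) were not among the letters of the 7 windows on either strand. Bases outside these windows were not searched, so sites further from the start would be missed. TGACGTCA contains TGACG, so these searches overlap.

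The first comparison asked how the genes varied over the 10 lines. Of the 10, 9 differed among lines at an adjusted p under 0.05 (edgeR's quasi-likelihood test with Benjamini-Hochberg adjustment over all genes), and Jund did not (adjusted p = 0.399). Among all 12173 genes tested, 51.8% did. Over the 45 pairs of lines, Ier3 differed in 25 pairs, Junb in 22, Fosl1 in 17, Jun in 16, Fos and Fosb in 13 each, Egr1 in 7, Fosl2 in 6, Ier2 in 5 and Jund in 0, where the median gene differed in 3. Of all gene and pair combinations 14.5% passed that test. Most of the Fos pairs that passed included the lot 6 male line, which had 0 Fos counts. Most of the Fosb pairs included the lot 6 female line, which had 2 Fosb counts in all. Lines next to each other in a gene's own order have small gaps, so few passes follow from the ordering itself. Of 90 neighbouring pairs 3 passed, and the share over all genes was not computed. These were Fosb in the lot 12 male over the lot 6 female line and Junb in the lot 6 male over the lot 8 male line. The last was Ier3 in the lot 7 female over the lot 6 female line. Levels below are compared between lines for 1 gene at a time.

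**Figure D1:**
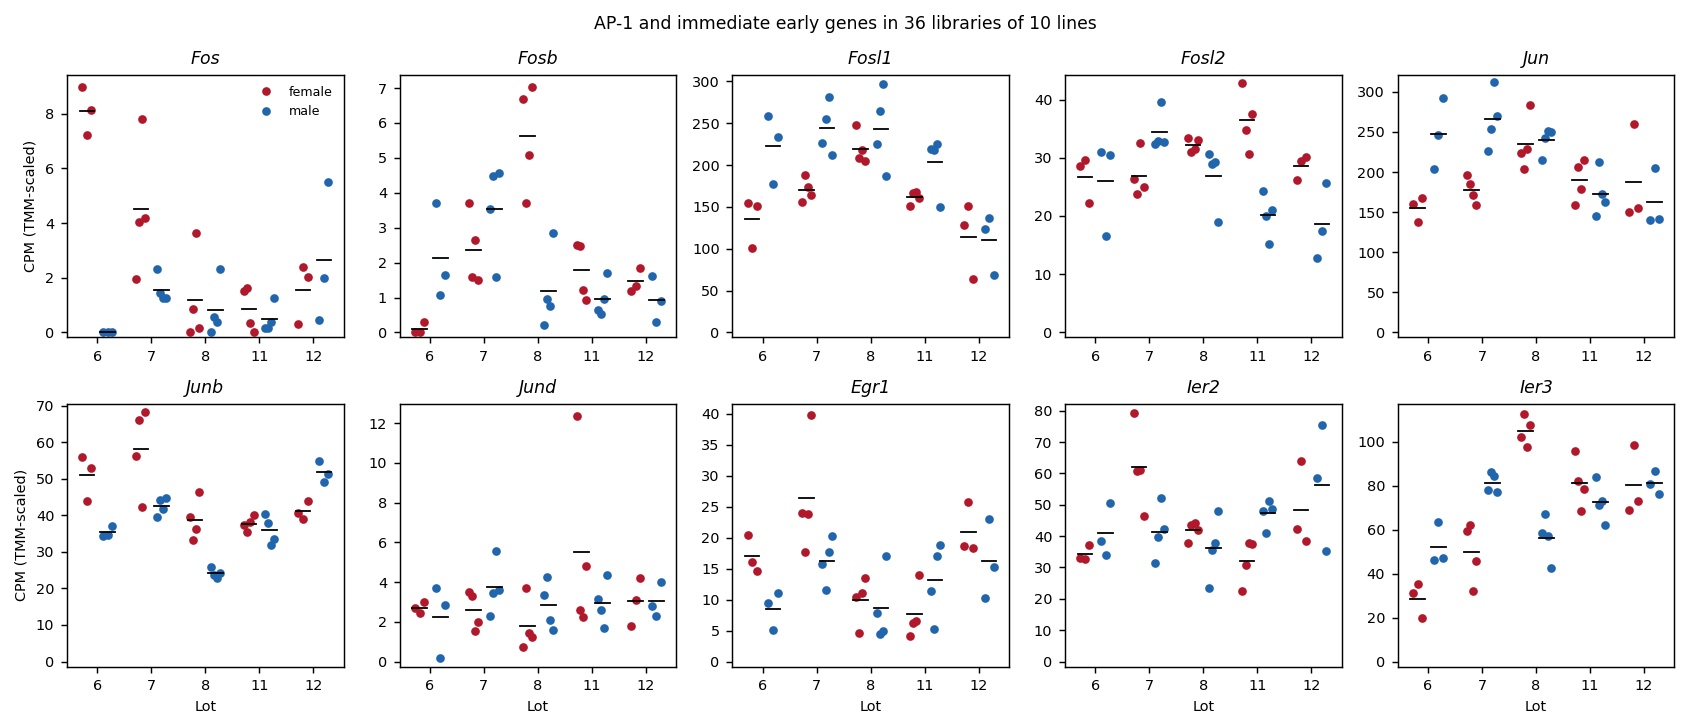
CPM on TMM-scaled library sizes (y axis, from 0) of each of the 10 genes in every library, by lot (x axis), with female libraries left and male libraries right in each lot and a bar at the mean of each line. Fos is at 0 in all 3 lot 6 male libraries while Fosb is at or near 0 in the lot 6 female libraries, and Fosl1 and Jun never fall below 64.2 CPM.

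Fos, the founding member of its family, was highest in the lot 6 female line, at 8.99, 7.21 and 8.15 CPM, and had 0 counts in each of the 3 lot 6 male libraries. The next line was lot 7 female, with 1.95, 4.03, 7.81 and 4.20 CPM, and the other 7 lines averaged from 0.489 CPM (lot 11 male) to 2.66 CPM (lot 12 male). In most lines its libraries were scattered, and 6 of 36 libraries had no Fos count. The lot 8 female libraries held 0, 4, 20 and 1 counts, or 0, 0.872, 3.64 and 0.176 CPM. The lot 12 male libraries held 2, 14 and 37 counts, or 0.464, 2.00 and 5.51 CPM. Libraries with 3 or fewer Fos counts lie at or under the floor, and no neighbouring lines in the order of Fos passed the test.

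Fosb, whose protein also pairs with Jun proteins, had its highest level in the lot 8 female line, at 6.68, 3.71, 5.10 and 7.04 CPM. It was lowest in the lot 6 female line, where the libraries had 0, 0 and 2 counts, or 0, 0 and 0.286 CPM. The lot 6 female line thus had the highest Fos level and the lowest Fosb level of the 10. The ratio of summed counts per total between the lot 8 female and the lot 6 female line was 61.5, with a 95% counting interval of 16.6 to 514 (113 against 2 counts). The lot 7 male line came second for Fosb, at 3.55 ± 1.39 CPM (SD, n = 4), and its difference from the highest line did not pass (adjusted p = 0.527).

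Fosl1 (Fra-1), a Fos protein typical of Ras-transformed cells, was highest in the lot 7 male line at 226, 256, 282 and 212 CPM. The lot 8 male line followed at 243 ± 47.5 CPM (SD, n = 4). Both lot 12 lines were lowest, with 128, 151 and 64.2 CPM in the female and 124, 137 and 69.1 CPM in the male libraries, so replicate 3 was the lowest of each. The lot 7 male line exceeded the lot 12 male line 2.22-fold, with a log2 fold change of 1.15 ± 0.21 (SE, adjusted p = 0.000117). Fosl2 (Fra-2) spanned a narrower range. It was highest in the lot 11 female line, at 42.8, 34.8, 30.6 and 37.6 CPM, and lowest in the lot 12 male line, at 12.8, 17.4 and 25.6 CPM, a log2 difference of 0.96 ± 0.21 (SE, adjusted p = 0.00138).

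Jun, the AP-1 subunit phosphorylated by JNK, was highest in the lot 7 male line, at 226, 254, 313 and 271 CPM. It was lowest in the lot 6 female line, at 159.6, 138 and 168 CPM, a 1.72-fold difference (log2 fold change 0.78 ± 0.17, SE, adjusted p = 0.000845). Junb, a weaker activator that can oppose Jun, had another order. Its highest line was lot 7 female, at 56.3, 65.99, 42.3 and 68.3 CPM, and its lowest was lot 8 male, at 25.95, 23.7, 22.8 and 24.2 CPM. The log2 fold change of 1.27 ± 0.14 (SE, adjusted p = 6.07e-09) exceeded the spread between libraries, and the lines did not overlap. Jund, which is constitutive in most cells, had its lowest mean in lot 8 female (1.78 CPM) and its highest in lot 11 female (5.51 CPM). The upper end rested on 1 library with 74 counts (12.4 CPM), where the others of that line had 2.6, 2.26 and 4.81 CPM. Jund had 1 to 74 counts per library, so its lack of calls rests on few counts and does not show a stable level.

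Egr1, on chromosome 18, was highest in the lot 7 female line, at 24.05, 17.7, 23.9 and 39.8 CPM, and lowest in the lot 11 female line, at 4.18, 6.16, 6.61 and 14.0 CPM (log2 fold change 1.77 ± 0.39, SE, adjusted p = 0.00117). The last library of each of these lines, replicate 4, was its highest. Ier2, a nuclear immediate early protein, shared both ends with Egr1: 79.4, 60.7, 61.1 and 46.6 CPM in the lot 7 female libraries and 22.4, 30.8, 37.7 and 37.4 CPM in the lot 11 female libraries. Ier3 (also called IEX-1), a stress-induced regulator of cell survival and ERK signalling, varied in more pairs of lines than the other 9. It was highest in the lot 8 female line, at 102, 113, 97.7 and 108 CPM, and lowest in the lot 6 female line, at 31.2, 35.2 and 19.7 CPM. These lines were 3.66-fold apart (log2 fold change 1.87 ± 0.19, SE, adjusted p = 2.76e-09), while the lot 7 male line and the 4 lines of lots 11 and 12 averaged 72.7 to 81.5 CPM.

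The study's design sets female against male lines. Across lots, with the libraries of each line summed and the lot as a covariate (n = 5 lines per sex), 0 of the 10 genes differed at an adjusted p under 0.05 by edgeR, and 0 did by DESeq2 or by limma voom with a random effect of the line. Of all 12010 genes tested, 0% passed, while 841 had an unadjusted p under 0.05. Of the members 1 had an unadjusted p under 0.05. This was Fosl1, which averaged 160.4 ± 39.9 CPM in female lines and 205 ± 55.6 CPM in male lines (SD, n = 5 each). Its log2 fold change was -0.32 ± 0.13 (SE) with an adjusted p of 0.695. Fos averaged 3.24 ± 3.08 CPM in female lines and 1.11 ± 1.04 CPM in male lines, and its log2 fold change was 1.31 ± 1.02 (SE, adjusted p = 0.765). Junb averaged 45.4 ± 8.88 CPM in female lines and 37.9 ± 10.1 CPM in male lines (log2 fold change 0.28 ± 0.17, adjusted p = 0.711). The log2 fold changes of Ier2 (-0.06 ± 0.17, SE) and Ier3 (-0.11 ± 0.25) were smaller in size than their SE, as were those of Fosb and Jund.

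Within lots the lines of opposite sex did differ, most often in lot 6. There 6 of the 10 genes passed, of which 2 were higher and 4 were lower in female cells, where 27.6% of all genes did (13.5% higher and 14% lower). Fos was at 8.99, 7.21 and 8.15 CPM in the female libraries and at 0 in the male libraries. Against the floor of 3 counts in each male library it was at least 15.9-fold higher in the female line (adjusted p = 0.00016). Fosb went the other way, with 0, 0 and 0.286 CPM in female libraries and 3.70, 1.06 and 1.64 CPM in male libraries (adjusted p = 0.000739). Summed counts were 2 in female and 37 in male libraries, a male over female ratio of 22.7 with a counting interval of 5.84 to 194. The 2 genes therefore differed in opposite directions between the same 2 lines, and their libraries did not overlap.

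Among the other Fos and Jun genes of lot 6, Junb was higher in female libraries, at 56.0, 44.0 and 53.0 CPM against 34.4, 34.5 and 37.2 CPM in male libraries (log2 fold change 0.53 ± 0.15, SE, adjusted p = 0.00835). Jun was lower, at 159.6, 138 and 168 CPM in female against 204, 246 and 292 CPM in male libraries (log2 fold change -0.68 ± 0.18, adjusted p = 0.00331). Fosl1 was lower as well, at 155, 101 and 151 CPM in female and 259, 177 and 234 CPM in male libraries (log2 fold change -0.72 ± 0.22, adjusted p = 0.0117). None of these overlapped between the 2 lines. Ier3 was lower, at 31.2, 35.2 and 19.7 CPM in female and 46.1, 63.7 and 47.2 CPM in male libraries (log2 fold change -0.87 ± 0.20, adjusted p = 0.00107). Egr1 did not pass (adjusted p = 0.0976), although its libraries did not overlap, at 20.4, 16.0 and 14.6 CPM in female and 9.44, 5.13 and 11.1 CPM in male libraries, and it passed on library totals (0.048), with no expression filter (0.0198) and in lot 6 alone (0.0236). In all, 7 of the 10 genes had libraries that did not overlap in lot 6, where 42.6% of all genes did not. The call of Fosl1 was lost without female replicate 2 (adjusted p = 0.0978), without male replicate 1 (0.0685) or on library totals alone (0.0531), and that of Junb without female replicate 1 (0.0518) or with no expression filter (0.0746). On library totals the median gene of lot 6 shifted by 0.223 on the log2 scale, and without female replicate 3, the single library with Fosb counts, the fitted Fosb value moved to -6.67.

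The lot 6 lines also differed in markers. The summed fibroblast and mesenchymal markers were at 16360 to 18490 CPM in female and 5383 to 6911 CPM in male libraries, with Tagln and Acta2 higher and Col1a1 and Col1a2 lower in the female line. The astrocyte markers summed to 617 to 722 CPM in female and 206 to 313 CPM in male libraries, a sum that rested on Apoe, at 549 CPM in female and 12.5 CPM in male libraries on average. Gja1 went the other way and was lower in the female line, at 75.7 CPM against 217 CPM in the male line (log2 fold change -1.52 ± 0.30, SE, adjusted p = 0.00016). Neuron markers summed to 10.6 to 17.0 CPM in female and 25.3 to 31.5 CPM in male libraries, with Stmn2 (adjusted p = 0.00395) and Tubb3 (0.0181) lower in the female line. Microglia and macrophage markers summed to 5.15 to 5.65 CPM in female and 2.12 to 4.82 CPM in male libraries, and 0 of the 3 tested passed. The part of these differences in the AP-1 results was not tested.

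In lot 7, 3 of the 10 genes passed, against 10.8% of all genes (5.41% higher and 5.42% lower in the female line). Junb was again higher in the female line, at 56.3, 65.99, 42.3 and 68.3 CPM against 39.6, 44.1, 41.8 and 44.6 CPM in the male line (log2 fold change 0.45 ± 0.13, SE, adjusted p = 0.0195), with 1 female library inside the male range. Jun was lower, at 196, 186, 171 and 159 CPM in female and 226, 254, 313 and 271 CPM in male libraries (log2 fold change -0.58 ± 0.15, adjusted p = 0.00903). Ier3 was lower, at 59.4, 62.0, 32.2 and 45.7 CPM in female and 78.3, 86.2, 84.5 and 77.0 CPM in male libraries (log2 fold change -0.71 ± 0.17, adjusted p = 0.00385). Jun, Ier3 and Fosl1 were the 3 genes whose libraries did not overlap, a pattern of 16.1% of all genes. Fosl1 had 156, 189, 173 and 164 CPM in female and 226, 256, 282 and 212 CPM in male libraries and an adjusted p of 0.0725, which was 0.00158 with no expression filter and 0.00546 in lot 7 alone. Ier2 had an adjusted p of 0.0662, and its call appeared without female replicate 4 (0.0389), without male replicate 3 (0.039) or on library totals (0.0406). The Junb call was lost without female replicate 2 (0.0835), female replicate 4 (0.0993) or male replicate 1 (0.0623), in lot 7 alone (0.0712) and with no expression filter (0.129). Mesenchymal markers summed to 8867 to 9620 CPM in female and 1689 to 2450 CPM in male libraries of this lot. Tubb3 was lower in the female line, at 1.95 CPM against 17.3 CPM in the male line, as were Gja1 (adjusted p = 0.0262) and Cspg4 (0.0237), and Apoe was higher (0.0345). The part of these markers was not tested.

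In lot 8, 3 of the 10 genes passed, each higher in the female line, against 11.4% of all genes (6.41% higher and 4.99% lower). Ier3 was at 102, 113, 97.7 and 108 CPM in female and 58.7, 67.2, 57.0 and 42.8 CPM in male libraries (log2 fold change 0.90 ± 0.17, SE, adjusted p = 0.000288), opposite in direction to lots 6 and 7. Junb was at 39.6, 33.1, 36.2 and 46.3 CPM in female and 25.95, 23.7, 22.8 and 24.2 CPM in male libraries (log2 fold change 0.69 ± 0.14, adjusted p = 0.000599). Fosb was at 6.68, 3.71, 5.10 and 7.04 CPM in female and 0.211, 0.963, 0.765 and 2.85 CPM in male libraries (log2 fold change 2.19 ± 0.64, adjusted p = 0.0185). These 3 and Fosl2 had libraries that did not overlap, as did 16% of all genes. The Fosb call was lost without male replicate 1 (adjusted p = 0.0735), 2 (0.056) or 3 (0.0595), and without male replicate 4 its log2 fold change was 3.07. The summed mesenchymal markers, most of them Acta2, overlapped between the lines of lot 8, at 2787 to 3649 CPM in female and 2279 to 3240 CPM in male libraries, but 4 of the 9 tested passed. Col1a1 (5.49 to 9.60 CPM in female and 53.2 to 106 CPM in male libraries) and Pdgfrb (1.19 to 5.45 CPM in female and 10.1 to 20.7 CPM in male libraries) were lower in the female line. Fn1 (244 to 349.5 CPM in female and 74.5 to 148 CPM in male libraries) and Tagln (470.1 to 529.7 CPM in female and 211 to 436 CPM in male libraries) were higher. Of the other lists, the neuron marker Stmn2 was higher (adjusted p = 0.0235) and the astrocyte markers Slc1a3 (0.0248) and Sox9 (0.0335) lower in the female line. The part of these markers was not tested.

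In lot 11, 1 of the 10 genes passed, against 4.33% of all genes (1.52% higher and 2.81% lower in the female line). Fosl2 was at 42.8, 34.8, 30.6 and 37.6 CPM in female and 24.4, 20.0, 15.2 and 21.02 CPM in male libraries (log2 fold change 0.85 ± 0.19, SE, adjusted p = 0.00467). Ier2 did not overlap either, at 22.4, 30.8, 37.7 and 37.4 CPM in female and 48.1, 41.03, 51.3 and 48.6 CPM in male libraries, but did not pass (adjusted p = 0.143). These were 2 of the 10 genes, where 10.3% of all genes had libraries that did not overlap. Neuron markers differed in both directions in lot 11, with Tubb3 at 37.4 CPM in the female and 7.49 CPM in the male line (adjusted p = 2.77e-06) and Stmn2 at 2.15 CPM in the female and 41.1 CPM in the male line (1.11e-05), while 0 of 7 astrocyte and 0 of 9 mesenchymal markers passed, and their part was not tested.

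In lot 12, 0 of the 10 genes passed by edgeR or DESeq2, against 3.8% of all genes by edgeR (1.74% higher and 2.06% lower). By edgeR 2 (Fosl2 and Junb) had an unadjusted p under 0.05, and the share of all genes at that level was not computed. These 2 also did not overlap, as 16.5% of all genes did not. Fosl2 was at 26.2, 29.4 and 30.1 CPM in female and 12.8, 17.4 and 25.6 CPM in male libraries (log2 fold change 0.61 ± 0.23, adjusted p = 0.144), and without male replicate 3 it passed (0.90, adjusted p = 0.0219). Junb was at 40.5, 39.1 and 44.0 CPM in female and 54.8, 49.2 and 51.2 CPM in male libraries (log2 fold change -0.33 ± 0.15, adjusted p = 0.288). Of 3 tested neuron markers 1 passed, Tubb3, at 13.1 CPM in the female and 39.3 CPM in the male line (adjusted p = 0.00485). Stmn2 (35.7 against 19.3 CPM) and Map2 (18.9 against 16.5 CPM) averaged higher in the female line. Of 9 tested mesenchymal markers 1 passed, Col1a2, at 45.5 CPM in the female and 602 CPM in the male line (3.31e-07). The median log2 fold change of the 9 was 0.218. The part of these markers was not tested.

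**Figure D2:**
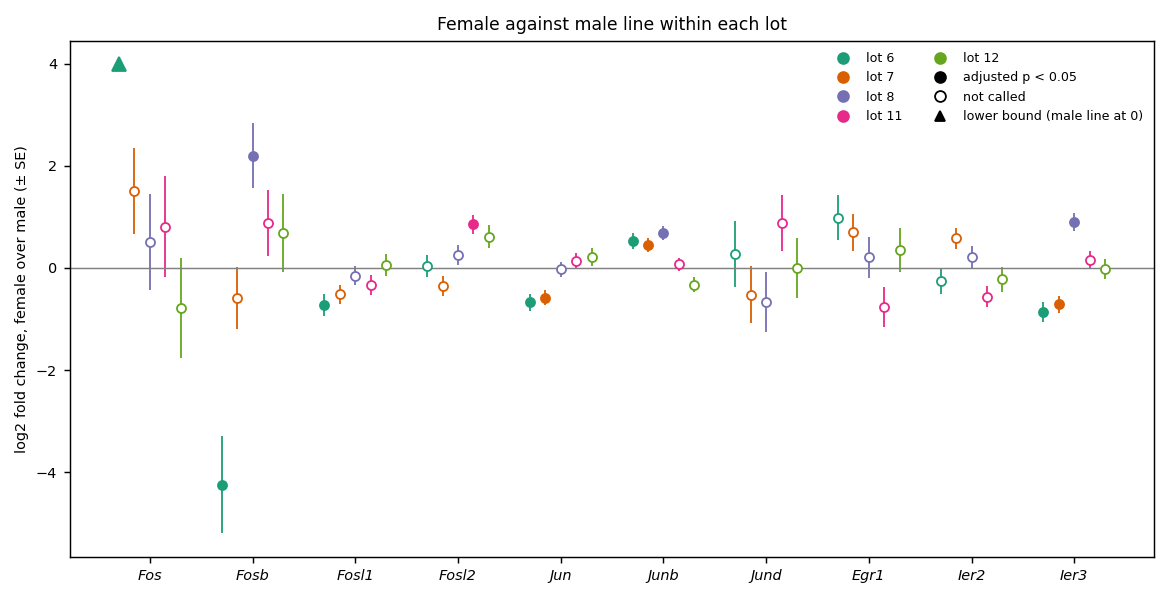
Log2 fold change of the female over the male line (y axis, bars are ± 1 SE of the fit) for each gene (x axis) and lot (colour), filled where the adjusted p was under 0.05; the triangle is the lower bound of 3.99 for Fos in lot 6, where the male libraries were at 0. Junb is above 0 and called in lots 6, 7 and 8, while Ier3 is below 0 in lots 6 and 7 and above it in lot 8.

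The differences between sexes were not alike in all lots. A test of the 4 differences between the 5 within-lot contrasts passed for 7 of the 10 genes, against 29.9% of all genes: Ier3 (adjusted p = 3.02e-06), Fosb (0.000478), Junb (0.00102), Jun (0.0039), Fos (0.00642), Fosl2 (0.00664) and Ier2 (0.0212). Ier3 and Fosb were called in both directions, lower in the female line of lot 6 and higher in that of lot 8. Junb had positive values in lots 6, 7, 8 and 11 and -0.33 in lot 12. Fosl1 was negative in lots 6, 7, 8 and 11 and 0.06 in lot 12, and its test of differences between lots did not pass (adjusted p = 0.214), nor did those of Egr1 (0.109) and Jund (0.456).

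Libraries of the same line were then compared with each other. The only label that separates them is the replicate number, and lots 7, 8 and 11 have a replicate 4 in both lines, for 24 libraries of 6 lines. With the line as a covariate, 2 of the 10 genes differed between replicate 4 and replicates 1 to 3, against 3.57% of all 11262 genes (1.51% higher and 2.06% lower). Egr1 was higher in replicate 4 by 0.93 ± 0.19 on the log2 scale (SE, adjusted p = 0.00338), and replicate 4 was above each of the other libraries in 6 of 6 lines. It was at 39.8 CPM against 24.05, 17.7 and 23.9 CPM in lot 7 female, and at 20.2 CPM against 15.7, 11.6 and 17.6 CPM in lot 7 male. It was at 13.5 CPM against 10.5, 4.58 and 11.1 CPM in lot 8 female, and at 17.1 CPM against 7.81, 4.43 and 4.97 CPM in lot 8 male. In lot 11 it was at 14.0 CPM against 4.18, 6.16 and 6.61 CPM in female, and at 18.8 CPM against 11.4, 5.34 and 17.0 CPM in male libraries. Relative to the mean of the other libraries, the gap was widest in lot 8 male and lot 11 female and narrowest in lot 7 male.

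Fosl1 was lower in replicate 4 by a smaller amount, with a log2 fold change of -0.25 ± 0.07 (SE, adjusted p = 0.0446). Its replicate 4 was under the mean of the other libraries in 6 of 6 lines and under each of them in 4. In the lot 11 male line it was at 149 CPM in replicate 4, against 219.7, 218 and 226 CPM in the other libraries, and in the lot 11 female line at 161 CPM against 151, 166 and 167 CPM. The other 8 genes did not pass, among them Fos (log2 fold change 0.22 ± 0.67, adjusted p = 0.918), Fosb (0.49 ± 0.38, adjusted p = 0.578) and Junb (0.13 ± 0.09, adjusted p = 0.521). Replicate 4 had the lowest share of mitochondrial mRNA in each of the 6 lines, at 0.251 to 0.349% of counts against 0.534 to 0.770% in replicates 1 to 3. In replicate 4, 3 of 7 tested mesenchymal markers were higher, led by Fn1 with a log2 fold change of 0.84 ± 0.07 (adjusted p = 2.17e-09), and 0 of 7 tested astrocyte markers passed, their median log2 fold change being 0.00423. Of 3 tested neuron markers, Stmn2 was lower (-1.86 ± 0.34, adjusted p = 0.000828) and Map2 higher (0.89 ± 0.25, adjusted p = 0.0435) in replicate 4. The part of any of these in the Egr1 and Fosl1 results was not tested. Without lot 8 the Egr1 value was 0.84 with an adjusted p of 0.0583, and the Fosl1 call was lost without any 1 of the 3 lots (0.106 to 0.276) and on library totals (0.124).

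**Figure D3:**
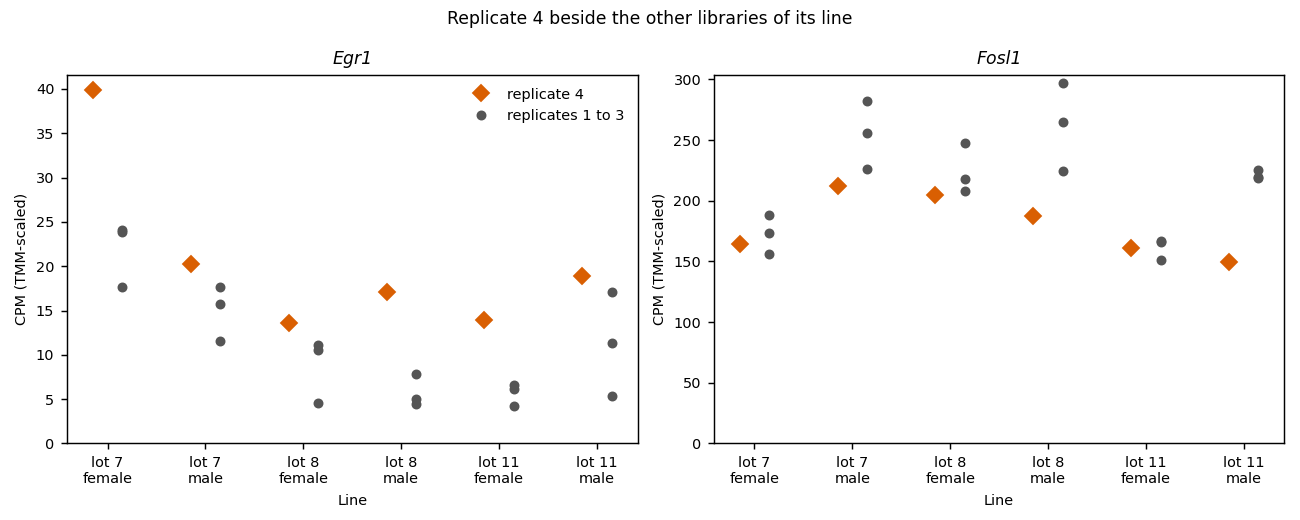
CPM on TMM-scaled library sizes (y axis, from 0) of Egr1 and Fosl1 in the 6 lines with a replicate 4 (x axis), with replicate 4 as diamonds and replicates 1 to 3 as circles. The Egr1 diamond is the highest point of each line, and the Fosl1 diamond is the lowest point of 4 lines.

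The spread between libraries of a line was described by the biological coefficient of variation (BCV), the part of the variation beyond counting error in the edgeR fit, beside the trend over all genes at the same abundance. Fos, Egr1 and Fosl1 varied more than the trend. Fos had a BCV of 77.3% where the trend was 56.7%, Egr1 35.9% where it was 25.8%, and Fosl1 18.8% where it was 14.2%. The ratio of dispersion to trend was lower in 91.7% of genes than in Fos, in 92.7% than in Egr1 and in 90% than in Fosl1. Junb lay at the other end, with a BCV of 12.4% against a trend of 18.1%, and 4.61% of genes had a lower ratio. Ier2 (20.2% against 17.8%) and Jun (15.3% against 14.1%) were above the trend. Ier3 (16.3% against 16.2%) and Jund (47.9% against 48.0%) lay on it, and Fosl2 (17.7% against 20.4%) and Fosb (47.0% against 57.8%) were under it. Immediate early genes did not share 1 degree of spread. Within each line the SD of log2 CPM was larger for Egr1 than for Junb, but the gap differed between lines. It was 0.559 against 0.063 in lot 6 male and 0.246 against 0.182 in lot 6 female. In lot 7 female Junb was scattered as well, at 0.313 against 0.480 for Egr1. The Egr1 spread includes the higher level in replicate 4 given above.

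**Figure D4:**
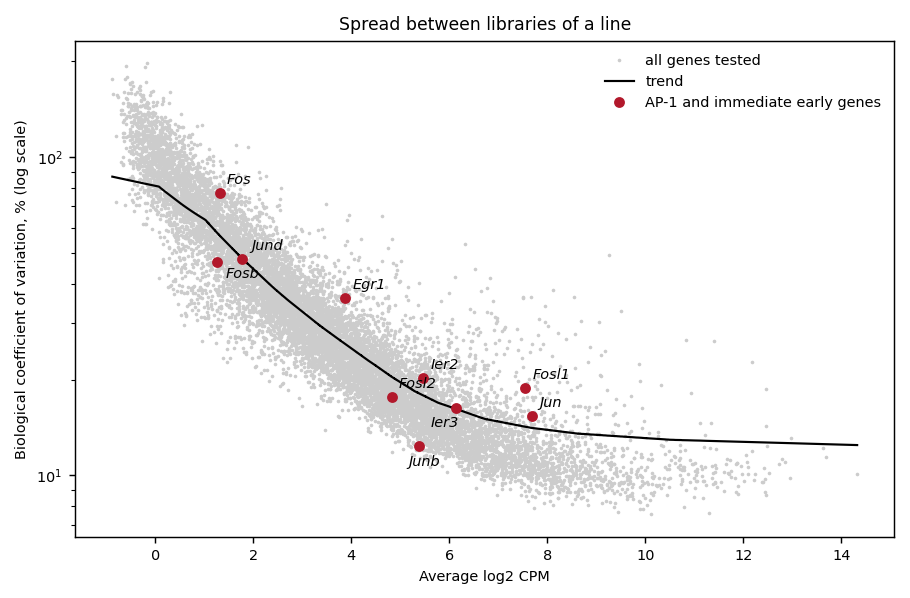
Biological coefficient of variation between libraries of a line (y axis, log scale, percent) against average log2 CPM (x axis) for the 12173 genes tested (grey), the trend (line) and the 10 named genes (red). Fos, Egr1 and Fosl1 lie above the trend and Junb below it.

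Levels of the genes over the 10 lines were compared as a description, with the points sharing lots, library pools and scaling. Fosl1 and Jun had the highest Pearson r of mean log2 CPM (0.804), followed by Junb and Egr1 (0.777), Fos and Egr1 (0.741), Fos and Junb (0.727) and Fosb and Ier3 (0.703). Fos and Jun ran against each other (-0.576), as did Fosl1 and Junb (-0.578) and Jun and Junb (-0.575). The r values over lines with Fos include the lot 6 male line at 0 counts. Those with Fosb include the lot 6 female line with 2 counts in all, and the prior count largely sets both points. Within lines, deviations from the line mean over the 36 libraries gave other pairs: Jun with Ier2 (0.631) and Fosl2 with Jund (0.583) were highest, while Fos with Egr1 was 0.0982 and Junb with Egr1 0.136. Fosl1 and Jun, the pair most alike over lines, had 0.392 within lines, and Egr1 and Ier2 had 0.685 over lines and 0.341 within them.

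The genes whose line pattern was most like each member were taken from 6342 genes (6343 for Fos and Fosb) whose mean log2 CPM was 3 or more, by Pearson r over the 10 lines. For Fos these were Eid1 (0.942), Casc4 (0.939) and Tmem63a (0.937), each of which also had its highest line in lot 6 female and its lowest in lot 6 male. For Fosb they were Lrrc8c (0.934), Msi2 (0.93) and Psme2 (0.924), highest in lot 8 female and lowest in lot 6 female as Fosb was. The r values of Fos and Fosb here also include the lot 6 points set largely by the prior count. Fosl1 was most like Rps6ka4 (0.967), a kinase gene downstream of ERK and p38, Ecpas (0.967) and Mettl2 (0.963). Fosl2 was most like Rgs16 (0.9), Sertad2 (0.875) and the receptor gene Met (0.87), and Jun like Rpl13a (0.926), Pop7 (0.925) and Aldh3a1 (0.913). Junb was most like Efcab14 (0.949), Fstl1 (0.915) and Prelp (0.915), and Egr1 like Selenom (0.928), Ltbp1 (0.927) and Tprgl (0.924). Ier2 was most like Btg1 (0.937), Wdyhv1 (0.925) and Xbp1 (0.898), and Ier3 like Tkt (0.922), Huwe1 (0.92) and Actg1 (0.907). For deviations between libraries of a line, the most like were Dnajc1 for Fos (0.666), Skp2 for Egr1 (0.709), Zmynd19 for Jun (0.714) and Uap1 for Ier2 (0.67). In both searches the highest r among so many genes can be large even where genes are unrelated, the more so over 10 points. These r values therefore rank genes and do not show shared regulation.

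Other genes of the pathway were taken from lists that were chosen with earlier results of these data known. Their counts beside the shares of all genes are therefore descriptions and no test of the lists. Of 25 AP-1 target genes 19 were tested, and 19 differed among lines, where 51.8% of all genes did, and 16 differed in their sex contrast between lots, where 29.9% did. For this and the lists that follow, the share of all genes that passed between the sexes was 27.6% in lot 6 and 10.8% in lot 7. Lot 8 had 11.4%, lot 11 had 4.33% and lot 12 had 3.8%, and replicate 4 differed in 3.57% of genes. In lot 6, 5 rose and 3 fell in female relative to male libraries, with a median log2 fold change of 0.186 against 0.0632 over all genes. Ezr, which links the membrane to actin, averaged 224 CPM in the female and 2.19 CPM in the male libraries, and the stromelysin gene Mmp3 39.9 CPM in female and 0.168 CPM in male libraries, a male value under the floor. The epidermal growth factor receptor ligand gene Areg was lower, at 14.7 CPM in female and 105 CPM in male libraries. In lot 8, 5 were higher in the female line (median 0.495 against 0.00461), among them the growth factor gene Hbegf at 1022 CPM in female and 504 CPM in male libraries and the chemokine gene Ccl2 at 29.9 CPM in female and 6.23 CPM in male libraries. In lot 7, 5 were higher and 4 lower, in lot 11, 3 higher and 2 lower, and in lot 12, 5 higher, with the protease inhibitor gene Timp1 at 5586 CPM in female and 2099 CPM in male libraries. In replicate 4, 3 of 19 were lower: Plaur, the urokinase receptor gene (log2 fold change -0.51 ± 0.08, adjusted p = 0.000212), the cyclin gene Ccnd1 (-0.33 ± 0.07, adjusted p = 0.00273) and Ccl2 (-0.94 ± 0.20, adjusted p = 0.00543).

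Of 32 other immediate early genes 28 were tested, and 18 differed among lines (51.8% of all genes did) and 14 in their sex contrast between lots (29.9% of all genes did). In lot 6, 4 rose and 3 fell in female relative to male libraries. Dusp1, a phosphatase that switches off MAP kinases, averaged 87.3 CPM in the female and 34.3 CPM in the male libraries (log2 fold change 1.35 ± 0.21, SE, adjusted p = 2.75e-06), and the kinase gene Sgk1 49.0 CPM in female and 209 CPM in male libraries (-2.09 ± 0.18, adjusted p = 1e-11). In lot 7, 5 were higher, with Dusp1 at 113 CPM in female and 31.0 CPM in male libraries. In lot 8, 4 were higher and 4 lower, with Klf4 at 22.5 CPM in female and 5.85 CPM in male libraries and Ier5 at 22.4 CPM in female and 8.37 CPM in male libraries. Lot 11 had 1 higher and 3 lower, and lot 12 had 1 higher and 1 lower. In replicate 4, 1 of 26 was higher (Ccn1, 0.25 ± 0.06, adjusted p = 0.0147) and 1 lower (Klf2, -0.84 ± 0.22, adjusted p = 0.0275).

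Of 20 other basic leucine zipper partners 16 were tested, and 9 differed among lines and 3 between lots, where 51.8% and 29.9% of all genes did, so the first share was near that of all genes and the second below it. Jdp2, which pairs with Jun and represses AP-1 sites, was higher in the female line of lot 6, at 13.9 CPM against 3.16 CPM in the male line, and lower in those of lot 8, at 0.706 against 5.51 CPM, and of lot 11, at 0.748 against 3.77 CPM. Atf4, the stress-response partner, was higher in the female line of lot 7, at 225 CPM against 138 CPM in the male line, and lower in that of lot 8, at 140.2 CPM against 192 CPM. Of 8 serum response factor and ternary complex factor genes, all tested, 2 differed among lines, a share below the 51.8% of all genes, and Elk3 was lower in the lot 6 female line (log2 fold change -0.61 ± 0.16, SE, adjusted p = 0.00294). Of 17 ERK, JNK and p38 kinase genes 15 were tested, and 9 differed among lines and 4 between lots, both near the 51.8% and 29.9% of all genes, among them Map2k3, an activator of p38, which was lower in the female lines of lot 6 (-0.85 ± 0.14, adjusted p = 6.36e-06) and lot 8 (-0.55 ± 0.12, adjusted p = 0.00134). Of 7 genes of AP-1 protein turnover, 2 differed among lines and 1 between lots, below the 51.8% and 29.9% of all genes, and the ubiquitin ligase gene Itch was higher in replicate 4 (0.68 ± 0.16, adjusted p = 0.0117).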

How the data were processed

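Per the labels' protocols, the libraries were BRB-seq 3' libraries, and the authors deposited raw counts per Ensembl mouse gene. Tools given in the submitters' processing notes are STAR 2.7.6a, Subread 2.0.2 and cutadapt 2.10, with the genome build GRCm38. Whether molecular identifiers were collapsed or strand was used is not given in the sources used here, and the intervals and floors here hold for counting error alone. Symbols came from GENCODE M21 for 45229 of 46078 identifiers.

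The genes and the gene lists were chosen with earlier results of these data known. Counts were fitted with edgeR 4.0.16 (R 4.3.3): trimmed-mean scaling, its default expression filter, 1 coefficient per line over 36 libraries (26 residual degrees of freedom), and a quasi-likelihood F test with Benjamini-Hochberg adjustment over all genes, at a threshold of 0.05. Pairs of lines were adjusted over genes and 45 pairs together. Across lots, 10 line sums were fitted with the lot as a covariate. Levels are CPM on scaled library sizes, and log2 CPM used a prior count of 2. List genes named are among the 4 with the smallest p per list and comparison. Scripts were tested on simulated data. Alternatives were DESeq2 1.42.0, limma 3.58.1 voom, 2 other scalings, no filter, a replicate block, 1 lot alone and leave-one-out fits. By a threshold of 0.1, replicate numbers paired the libraries in lot 12 alone. There residuals of same-numbered libraries of both sexes correlated at 0.131 to 0.227 over 3 pairs.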

Additional observations from a re-analysis of the deposited data

Results flagged for a closer look

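Single libraries stood apart from the others of their line for 3 of 80 combinations of gene and line or sex, by the gap to the nearest library relative to the range, and chance marks about 1 in 20 such groups. Fosl1 was at 149.4 CPM in replicate 4 of the lot 11 male line, where the other libraries were at 218 to 226 CPM. Fosl2 was at 18.88 CPM in replicate 4 of the lot 8 male line, under 28.9 to 30.6 CPM in the others, and at 39.53 CPM in replicate 3 of the lot 7 male line, over 32.4 to 32.8 CPM in the others.

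The female over male difference was not alike in the 5 lots for Fos (adjusted p = 0.00642), Fosb (0.000478), Fosl2 (0.00664), Jun (0.0039), Junb (0.00102), Ier2 (0.0212) and Ier3 (3.02e-06), by edgeR's test of the interaction. The lot 6 female line had the highest Fos and the lowest Fosb, Jun and Ier3 levels of the 10 lines.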

How the results depend on the processing

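Counts of called members stayed within 1.5 times under 162 of 169 alternatives, and of 749 alternatives for single members (Jund, which never passed, left out) 688 kept direction and side of the threshold, 18 lost a call, 15 gained one and 28 changed sign. On library totals alone, replicate 4 had 1 called member, not 2, and leaving out 1 lot left 0 to 1. Leaving out 1 library gave lot 12 a count of 0 to 1. In lots 6, 7, 8 and 11, same-number correlations were -0.0259 to 0.0922, each under the 0.1 taken here as pairing. The replicate 4 pairs of lots 7, 8 and 11 (0.0749, 0.0895 and 0.0922) still exceeded every pair of unlike numbers in their lot. Those reached at most 0.0209, 0.0364 and 0.0351. With replicate numbers as a block, lot 7 had 5 called members in place of 3 and lot 11 had 2 in place of 1. Lot 6 had 7 and the test between lots 9, and lot 12 kept 0. The share of all genes that passed with this block was not computed, so these counts have no background beside them. The block added Egr1 in lot 6 (adjusted p = 0.0132), Fosl1 (0.00105) and Ier2 (0.0248) in lot 7 and Ier2 in lot 11 (0.0496). The cause of these changes was not tested.

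Each sign change was of a value that was not called. On library totals alone, the log2 fold changes were 0.0336 for Ier2 across lots, 0.0561 for Jun in lot 8 and 0.0482 for Ier3 in lot 12. Leaving out 1 lot gave, across lots, -0.49 to 0.80 for Fosb, -0.21 to 0.0648 for Ier2 and -0.36 to 0.0816 for Ier3. It gave, for replicate 4, -0.0867 to 0.18 for Fos, -0.0069 to 0.16 for Jun and -0.0235 to 0.24 for Ier2. Leaving out 1 library gave -0.20 to 0.17 for Fosl2 in lot 6. In lot 8 it gave -1.23 to 1.82 for Fos, -0.13 to 0.0342 for Jun and -0.0047 to 0.80 for Egr1. In lot 12 it gave -1.26 to 0.26 for Fos, -0.20 to 0.34 for Fosl1, -0.0940 to 0.41 for Jun, -0.48 to 0.0460 for Ier2 and -0.19 to 0.0772 for Ier3. Fos had no replicate 4 value without lot 7, where it failed the expression filter. The Fos and Fosb calls rest on few counts, with floors of 0.385 to 0.716 CPM.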
